A study of Caenorhabditis elegans with 2 samples.

Results

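The outer 25% at each end of chromosomes II, III, IV and V of Caenorhabditis elegans was examined for peaks of HMG-4 in early embryos. Each chromosome was divided into 100 kb windows from its first base on the ce11 build, and a window was called outer when its midpoint lay in the first or last 25% of the chromosome. This gave 338 outer windows, covering 33.7 Mb, of 676 windows on these chromosomes and 1005 on all 6 nuclear chromosomes. The other 338 windows formed the central part, covering 33.8 Mb, and served for comparison. The outer windows held 6426 protein-coding genes (191 per Mb) against 7938 (234.9 per Mb) in the central ones, counted by their 5' ends. Repeats marked as soft-masked in the genome sequence took up 43.3% of outer and 29.4% of central bases.

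HMG-4 is a worm homologue of SSRP1, a subunit of FACT, the histone chaperone that takes nucleosomes apart and rebuilds them as polymerases pass. All samples came from strain OP660, which carries the unc-119(tm4063) allele and the transgene wgIs660. In that transgene hmg-4 is joined to TY1, EGFP and 3xFLAG tags, and an unc-119(+) copy accompanies it. The labels name no deletion of the worm's own hmg-4, so untagged protein may be present, and the material is whole early embryos of mixed sex at 0 hours. Chromatin was precipitated with an antibody against green fluorescent protein in 2 biological replicates of this 1 group. There is no second group, so the comparisons are between places in the genome, and the main ratios and shares are given with the values of both replicates.

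The autosomes of this worm have no point centromere, and each has a central region and distal arms that differ in their biology. The arms recombine more, hold more repeats and more histone H3 methylated at lysine 9, and lie closer to the nuclear envelope. Essential and widely expressed genes are more frequent in the centres. Large, fast-changing families such as chemoreceptors and F-box proteins are more frequent on the arms, and chromosome IV carries large clusters of piRNA genes. The outer windows used here are set by a fixed fraction of length and only approximate the arms.

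A peak is a stretch where the authors' caller found more immunoprecipitated DNA than in a control. Its summit is the single base of highest enrichment, and its signal value is the caller's measure of enrichment, whose scale the sources used here do not give. After thresholding by irreproducible discovery rate (IDR), the authors kept 2137 peaks, of which 1136 lay on these 4 chromosomes and 471 in outer windows. The pooled list and each replicate's list held exactly 30000 peaks. The strongest 2137 peaks of each replicate served as that replicate's counterpart of the IDR list, which was the same set as the strongest 2137 pooled peaks.

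The tallest outer peaks lay at or near genes for small structural or regulatory RNAs. The first 6 in strength lay at a snoRNA, a microRNA, another snoRNA, an snRNA and 2 further snoRNAs. The strongest peak was at such a gene in 7 of the 8 chromosome ends. The 200 bases around the summits of some of these peaks are given here, as the forward strand of the RefSeq genome sequence (WBcel235, the ce11 build), with the bases of the small RNA gene in capitals. They are shown because they carry the tallest peaks of these regions and show where the summit, in the middle of each stretch, falls relative to the gene.
cel-mir-52, chrIV:14033987-14034186: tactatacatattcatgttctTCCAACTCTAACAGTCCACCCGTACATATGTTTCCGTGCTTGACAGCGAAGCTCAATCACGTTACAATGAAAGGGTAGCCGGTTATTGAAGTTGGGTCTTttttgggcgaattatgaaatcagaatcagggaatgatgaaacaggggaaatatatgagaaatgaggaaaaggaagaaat
T06C12.16, chrV:15873870-15874069: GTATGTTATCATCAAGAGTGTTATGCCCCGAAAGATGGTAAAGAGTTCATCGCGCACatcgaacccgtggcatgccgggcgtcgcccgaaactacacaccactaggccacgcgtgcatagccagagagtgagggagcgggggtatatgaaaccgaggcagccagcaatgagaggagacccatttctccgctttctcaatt
R07E5.16, chrIII:10989762-10989961: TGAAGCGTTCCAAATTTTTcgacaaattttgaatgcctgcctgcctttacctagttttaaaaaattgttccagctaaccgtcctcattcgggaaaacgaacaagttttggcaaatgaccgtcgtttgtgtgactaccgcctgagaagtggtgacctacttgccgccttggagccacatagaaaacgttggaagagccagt
Y43F8C.22, chrV:19643097-19643296: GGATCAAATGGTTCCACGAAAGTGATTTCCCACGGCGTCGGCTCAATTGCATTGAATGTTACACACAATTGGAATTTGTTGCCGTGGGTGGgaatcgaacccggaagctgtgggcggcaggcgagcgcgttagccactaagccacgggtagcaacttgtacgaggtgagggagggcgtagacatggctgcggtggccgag
Y38F2AR.14, chrIV:2408504-2408703: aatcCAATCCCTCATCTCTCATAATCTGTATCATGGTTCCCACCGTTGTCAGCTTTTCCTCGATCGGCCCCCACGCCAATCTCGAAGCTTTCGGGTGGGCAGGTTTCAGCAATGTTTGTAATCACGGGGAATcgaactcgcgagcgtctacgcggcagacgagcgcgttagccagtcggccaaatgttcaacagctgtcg
F29C4.t1, chrIV:143884-144083: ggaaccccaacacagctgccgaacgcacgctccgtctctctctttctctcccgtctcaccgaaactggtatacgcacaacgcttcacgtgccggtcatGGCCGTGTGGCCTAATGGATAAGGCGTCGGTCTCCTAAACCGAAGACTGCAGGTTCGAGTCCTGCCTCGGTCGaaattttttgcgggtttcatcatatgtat
Y22D7AL.t3 and Y22D7AL.t4, chrIII:1604587-1604786: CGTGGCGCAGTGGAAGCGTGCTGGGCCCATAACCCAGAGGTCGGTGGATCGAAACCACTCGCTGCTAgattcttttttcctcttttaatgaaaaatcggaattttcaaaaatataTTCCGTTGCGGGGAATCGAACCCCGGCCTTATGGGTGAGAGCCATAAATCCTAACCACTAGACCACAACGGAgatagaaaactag
W09G10.t3 and W09G10.t2, chrII:3519115-3519314: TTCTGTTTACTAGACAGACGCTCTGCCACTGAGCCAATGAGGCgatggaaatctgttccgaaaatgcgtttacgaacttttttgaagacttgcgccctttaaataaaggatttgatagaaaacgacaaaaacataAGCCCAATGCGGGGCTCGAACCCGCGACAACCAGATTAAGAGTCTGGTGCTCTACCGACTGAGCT
The summit fell inside the genes cel-mir-52 and Y38F2AR.14, and inside the tRNA gene F29C4.t1, 2 bp from its 5' end. It fell outside T06C12.16, 44 bp from its 5' end, and outside Y43F8C.22, 10 bp from its 5' end. At the snRNA gene R07E5.16 it fell past the 3' end, 183 bp from the 5' end. It lay between the paired tRNA genes in the last pair of stretches. The motif GTTCGANNC, which covers the internal B box of tRNA genes, was present in both tRNA pairs and in F29C4.t1. It was also present on the reverse strand at bases 92 to 100 of the Y43F8C.22 stretch and 129 to 137 of the Y38F2AR.14 stretch, at the 5' end of each snoRNA gene, which lies on that strand. The motif was found on either strand within 150 bases of 9.77% of the 471 outer IDR summits and 9.02% of the 665 central ones. Of the non-overlapping 300-base tiles it was in 2.51% of outer and 2.19% of central ones. Among summits within 500 bp of a tRNA gene's 5' end it was found at 30 of 45 outer (66.7%) and 34 of 43 central ones (79.1%). Among summits without a tRNA gene as neighbour it was found at 16 of 424 outer (3.77%) and 26 of 622 central ones (4.18%). Near snoRNA gene starts the counts were 4 of 21 outer (19.0%) and 11 of 37 central (29.7%). Near snRNA gene starts they were 0 of 6 and 3 of 16, and near microRNA gene starts 0 of 12 and 1 of 8.

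Strong HMG-4 peaks were sparser in outer than in central windows per base. The IDR list had 471 outer summits, or 14.0 per Mb, against 665 central summits, or 19.7 per Mb, a ratio of 0.711. Among the strongest peaks of each replicate the ratio was 0.857 in replicate 1 (550 outer, 644 central) and 0.672 in replicate 2 (462 outer, 690 central). Both replicates were below 1, and the distance of the IDR ratio from 1 was larger than the gap between them. Outer windows took 41.5% of the IDR summits on these chromosomes (exact 95% binomial interval 38.6 to 44.4, counting error only), with 46.1% in replicate 1 and 40.1% in replicate 2.

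Counted per protein-coding gene, the IDR ratio was closer to 1 and the replicates did not share its direction. There were 7.33 IDR summits per 100 protein-coding genes in outer windows and 8.38 in central ones, a ratio of 0.875. The same ratio was 1.06 in replicate 1 and 0.827 in replicate 2. The difference per gene was thus within the spread between the replicates. Leaving out chromosome IV took the per-gene ratio to 0.737, and leaving out chromosome V took it to 0.979.

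Single windows held few strong peaks. No IDR summit fell in 139 outer windows (41.1%), against 85 central windows (25.1%), where 66.9% of all 676 windows held at least 1. The outer share without a strong peak was 37.0% in replicate 1 and 40.2% in replicate 2, and the central share 26.3% and 20.7%. The median outer window held 1 IDR summit and the fullest held 8, against a median of 2 and a maximum of 11 in central windows. The outer windows therefore differed mostly in having more empty windows and fewer with 2 to 4 summits, while 13 outer and 18 central windows held 6 or more.

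**Figure D1:**
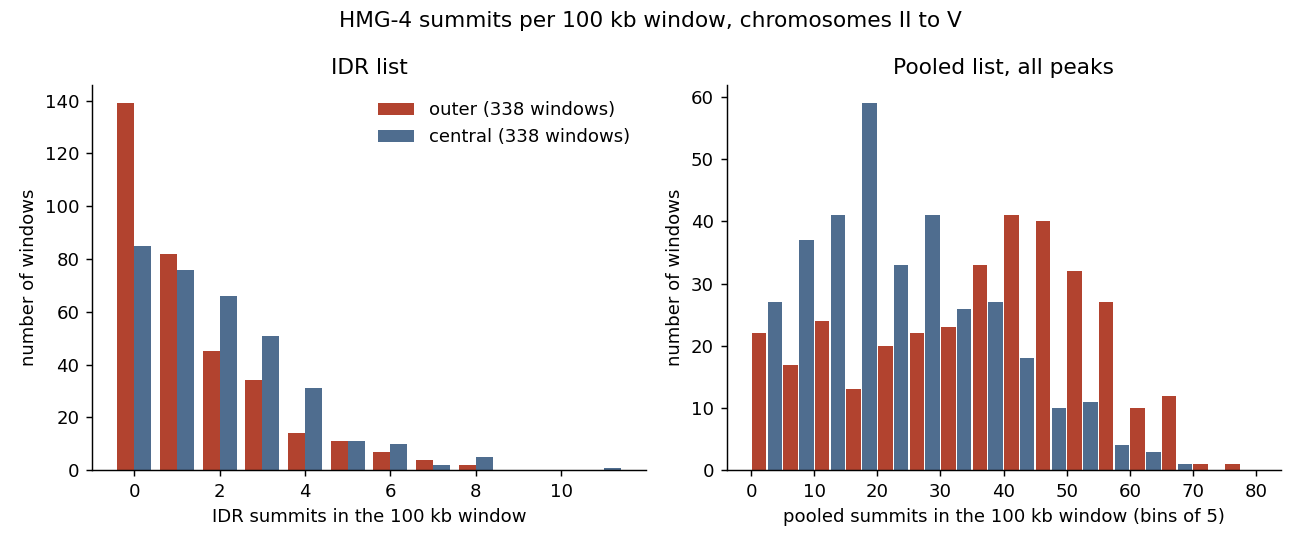
Number of 100 kb windows (vertical axis) by the number of IDR summits (left) or of all pooled summits (right, bins of 5) that each holds, for the 338 outer and 338 central windows of chromosomes II to V. Empty windows are more frequent among outer windows for the IDR list (139 against 85), whereas windows with 50 or more pooled summits are also more frequent there (83 against 19).

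Weaker peaks had the opposite distribution. In the whole pooled list, 12012 summits were outer (357 per Mb) and 7743 central (229 per Mb), a ratio of 1.56. The ratio was 1.68 in replicate 1 (12700 outer, 7591 central) and 1.23 in replicate 2 (10661 outer, 8700 central). Both replicates were above 1, and both were above either replicate's value for strong peaks. Per protein-coding gene the ratio was 1.92 pooled, 2.07 in replicate 1 and 1.51 in replicate 2.

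In the pooled list the ratio rose with each step down in peak rank. Among peaks ranked 1 to 500 by signal value the outer-to-central ratio per Mb was 0.626. It was 0.735 for ranks 501 to 2137, 1.23 for ranks 2138 to 5000 and 1.60 for ranks 5001 to 10000. It levelled off at 1.71 for ranks 10001 to 20000 and 1.72 for the last 10000. The crossing of 1 lay at different ranks in the replicates, and at ranks 2138 to 5000 the ratio was 1.48 in replicate 1 and 0.957 in replicate 2. Outer windows thus held fewer of the tallest peaks and more of the lower ones in both replicates, with the lower ones reaching a larger excess in replicate 1.

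The weaker outer peaks were listed in both replicates at least as often as the central ones. Of outer pooled peaks ranked 2138 to 5000, 95% overlapped a peak of both replicates' lists, against 84.8% of central ones. Of the last 10000 the shares were 31.4% outer and 28.0% central. With only the 16885 pooled peaks that overlapped a peak in both lists, 6812 summits were outer and 4293 central, a ratio of 1.59. The ratio was as large among these peaks, a selection made after the values were seen. The pooled list covers the same 2 replicates, whose own lists were denser in outer windows. They had 377 against 225 summits per Mb in replicate 1 and 317 against 257 in replicate 2. Outer peaks thus had more peaks to overlap by position alone, so these shares cannot show that they recur more.

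**Figure D2:**
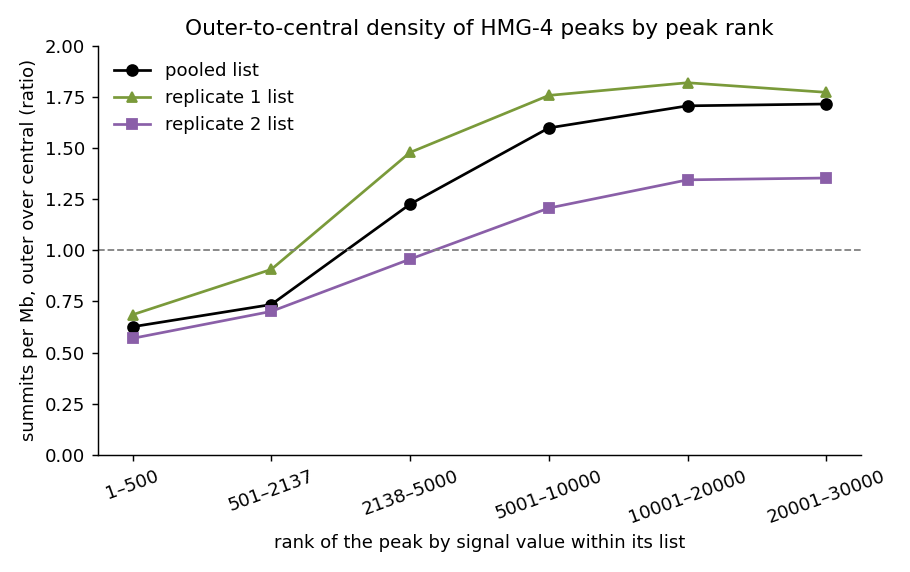
Ratio of summits per Mb in outer over central windows (vertical axis) by the rank of the peak by signal value within its list (horizontal axis), for the pooled list and both replicates' lists. The dashed line marks equal density; the pooled ratio goes from 0.626 for ranks 1 to 500 to 1.72 for ranks 20001 to 30000.

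The 8 ends were not alike. Only the right end of II (24.9 IDR summits per Mb against 24.7 in its own centre) and the left end of IV (20.5 against 13.1) reached or passed their own centre. The right end of II was above its centre in replicate 1 (ratio 1.24) and just below it in replicate 2 (0.976). The left end of IV was above its centre in both, by 1.68 and 1.09. The lowest ratio was at the left end of II, with 8.42 per Mb and a ratio of 0.341 to its centre (0.458 in replicate 1, 0.320 in replicate 2).

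The remaining ends lay between these. The left and right ends of III had 17.6 and 20.7 IDR summits per Mb, beside a centre with 30.4, the densest of the 4 chromosomes. Those of V had 8.85 and 7.66 per Mb beside a centre with 14.4. The right end of IV had 8.42 per Mb. Chromosome IV was the only one of the 4 whose outer windows were together denser than the centre in the IDR list (ratio 1.10, with 1.13 in replicate 1 and 0.913 in replicate 2). Its direction was thus not shared by the replicates.

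In the whole lists 7 of the 8 ends were denser than their own centre, in the pooled list and in each replicate. The exception in all 3 lists was the right end of IV, with 124 pooled summits per Mb against 191 in the centre of IV. Its ratio was 0.647 pooled, 0.677 in replicate 1 and 0.727 in replicate 2. This end holds one of the large piRNA gene clusters of chromosome IV. The highest ratio was at the other end of the same chromosome, 2.20 pooled, with 2.54 in replicate 1 and 1.59 in replicate 2.

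**Figure D3:**
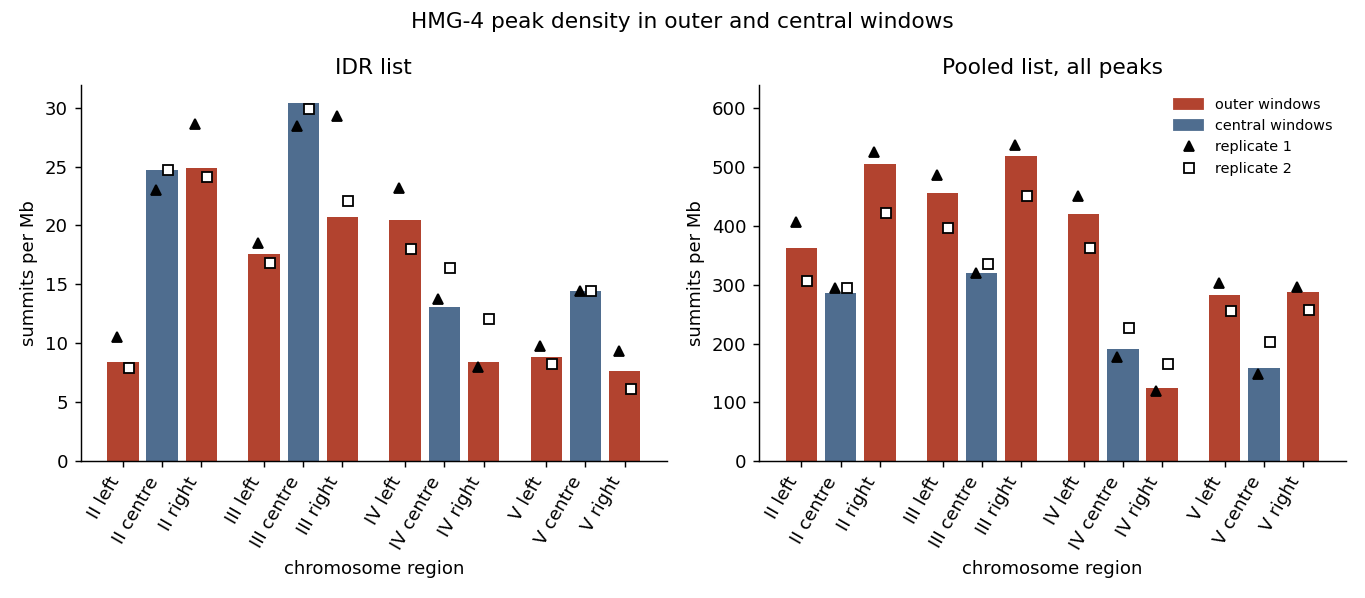
Summits per Mb (vertical axis) in the left outer, central and right outer windows of each chromosome, for the IDR list (left) and the whole pooled list (right). Bars give the list named above the panel, and the triangle and square give replicate 1 and replicate 2 (their 2137 strongest peaks on the left, all 30000 on the right); the right end of IV is the only end below its centre in the pooled list.

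Density also varied within the outer stretches. With each stretch divided into 5 equal parts from the chromosome end inwards and the 8 ends summed, IDR summits per Mb were 16.4, 18.5, 9.93, 8.59 and 16.2. In replicate 1 the strongest peaks gave 18.8, 20.5, 11.0, 12.4 and 18.7 per Mb. In replicate 2 they gave 16, 17.3, 9.48, 9.93 and 15.9. Parts 3 and 4 were the lowest in each list, and the gap to the other parts was larger than that between the replicates. Single ends ranged widely, from 0 to 25.2 IDR summits per Mb in part 4 and from 6.69 to 48.4 in the innermost one. In the whole pooled list parts 3 and 4 were also the lowest, with 385, 382, 332, 323 and 362 summits per Mb, all above the central 229.

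At the 8 boundaries between outer and central windows the last outer windows held 13 IDR summits in all and the first central windows 19. In the pooled list they held 262 and 300, with 314 and 358 in replicate 1 and 235 and 261 in replicate 2. The adjoining windows at the right end of IV differed most, with 15 pooled summits in the outer and 62 in the central window.

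**Figure D4:**
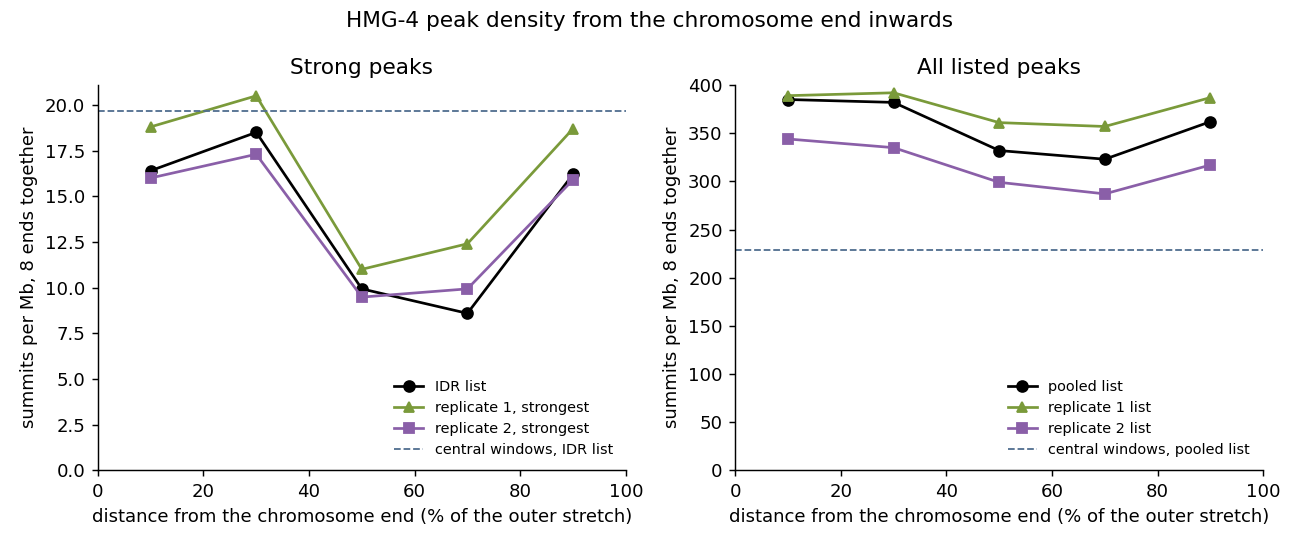
Summits per Mb (vertical axis) in 5 equal parts of the outer stretch, from the chromosome end (left) inwards, over the 8 ends together, for strong peaks (left panel) and all listed peaks (right panel). The dashed line gives the central windows; IDR summits fall to 8.59 per Mb in part 4, while all 5 pooled values lie above the central 229 per Mb.

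The outer windows with the most IDR summits were IV 100001 to 200000 and II 11500001 to 11600000, with 8 each. The IV window held 65 pooled summits, 71 in replicate 1 and 53 in replicate 2, and its strongest peak was at the tRNA gene F29C4.t1 (signal 538). A further IDR summit near that gene (219) overlapped the same peak of each replicate. The window's others lay around the ncRNA gene Y38C1AA.16 (379 for the highest of 3), near cox-6C, a subunit of cytochrome c oxidase (171), at Y38C1AA.12 (154) and near tcl-2 (133). The II window holds the mir-35 cluster, microRNAs made in oocytes and early embryos. Its peaks included one within the cluster, nearest mir-38 (219 pooled, 159 in replicate 1, 64.4 in replicate 2), and one upstream at 393 bp from the nearest 5' end (167). Others lay at F54D5.5 and its ncRNA neighbours (313) and at dnj-13, a DnaJ-type co-chaperone (219), with the ncRNA start of F54D5.22 nearer at 36 bp. A further one lay at gfat-1, an enzyme of hexosamine synthesis (133), with the ncRNA start of F07A11.9 nearer at 12 bp.

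Of the 4 windows with 7 IDR summits, 3 were on the right of II and 1 on the right of III. The window II 11600001 to 11700000 held peaks at the snoRNA gene ZK20.9 (368), at the ncRNA gene ZK20.8 (346) and inside din-1, a corepressor that works with the hormone receptor DAF-12 (203 in a coding exon). II 11900001 to 12000000 held the strongest outer peak of all, at the snoRNA gene W03C9.9, and a peak at ash-2, a subunit of a histone H3 lysine 4 methyltransferase complex (191). II 14000001 to 14100000 held peaks in daf-5, a Sno/Ski-type cofactor in TGF-beta signalling (234.5), and at rpb-11, a subunit of RNA polymerase II (155). It also held peaks in xrn-1, a 5'-to-3' exonuclease (137), and at lem-2, an inner nuclear membrane protein (134).

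The window III 12600001 to 12700000 was of another kind. Of its 7 summits, 4 lay in introns of the single gene Y111B2A.12, the strongest with 252. Another lay near the starts of Y111B2A.12 and epc-1, an Enhancer of Polycomb homologue (209). The densest outer window of the pooled list, III 2900001 to 3000000, had 77 pooled summits, 63 in replicate 1 and 61 in replicate 2, yet none in the IDR list. Among all outer windows with no IDR summit the median was 22 pooled summits, against 10 among such central windows and 39 over all outer windows.

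The longest run of outer windows without an IDR summit covered V 16600001 to 17900000, with 13 windows. It held 312 protein-coding genes, of which 104 were chemoreceptor genes, and 259 pooled summits. On the left of V, 1900001 to 2600000 and 2700001 to 3400000 were runs of 7 windows. They held 38 and 97 chemoreceptor genes among 178 and 198 protein-coding genes. Over all outer windows 770 of 6426 protein-coding genes were chemoreceptor genes. On the right of IV, 15100001 to 15600000 was a run of 5 windows with 1736 piRNA genes. It held 21 pooled summits, 18 in replicate 1 and 39 in replicate 2.

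In the whole lists 8 outer windows held no pooled summit, as did 8 central ones, and 27 outer and 32 central windows held 5 or fewer. No central window was without a summit in every list, against 2 outer ones. One of these, IV 15300001 to 15400000, lies in the piRNA clusters. It has 430 piRNA genes, 11 protein-coding genes and a GC content of 30.5%, against 35.6% over all outer windows. Many piRNA genes of this worm carry a short upstream element with the core CTGTTTCA, and this window holds it 129 times on either strand. The first such gene of the window to carry it is shown, on the forward strand of the same genome sequence, with the element in capitals. Its 21 bases of piRNA follow 36 bases later, at the end of the stretch.
21ur-8687, chrIV:15299986-15300066: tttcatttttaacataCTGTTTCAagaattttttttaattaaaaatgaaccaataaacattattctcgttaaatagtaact
The element was found in the 60 bases before 31.6% of the window's 430 piRNA genes. It was found before 34.0% of the 15103 piRNA genes of chromosomes II to V and before 0.278% of their 14364 protein-coding genes. The presence of the letters is a description, and no factor was measured at it.

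The other empty window, V 2400001 to 2500000, has sequence that recurs close by. Only 0.4% of its 31-base words occur once in the genome, and 99.6% have another copy within 2300001 to 2600000. Its neighbours, with 33.4% and 34.0% of words unique, held 6 and 11 pooled summits. All of these lie in the run V 1900001 to 2600000 without an IDR summit. In the longest such run, the windows starting at 16600001, 16900001, 17100001 and 17300001 had 78.4%, 72.5%, 76.3% and 78.6% of words unique. The median over windows was 89.0% outer and 95.7% central, and 30 outer and 11 central windows were under 80%. The part of repeated sequence in these counts was not tested window by window. With the windows under 80% left out, a choice made after the values were seen, the outer-to-central ratio was 0.719 for IDR and 1.58 for pooled summits. In the piRNA window IV 15300001 to 15400000, 86.7% of words were unique.

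Across the 334 outer windows of full length, the replicates ordered the windows alike in their whole lists (Spearman's rho 0.853, and 0.805 over 338 central windows). These are descriptions across windows, which share the 2 libraries and 1 control and lie next to each other. The number of pooled summits went with GC content (0.455 outer, 0.702 central), more in replicate 1 (0.525 outer) than in replicate 2 (0.293 outer). It went against the number of piRNA genes (-0.482 outer, -0.274 central) and of chemoreceptor genes (-0.410 outer, -0.391 central). For IDR summits the value with GC content was 0.136 outer and 0.298 central. With chemoreceptor genes it was -0.311 outer and -0.218 central. The part of base composition in the counts was not tested.

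Outer IDR peaks had about the median signal of central ones and lay less often near an annotated 5' end of any gene class. The median signal of IDR peaks was 168 outer and 173 central, with maxima of 1142 and 1189. The lowest signal of the list was 129.8, a floor shared by both zones. The 90th percentile was 305.5 outer and 354 central. A summit lay within 500 bp of an annotated 5' end in 57.1% of outer peaks (52.5 to 61.6) and 66.0% of central ones (62.3 to 69.6). The shares were 50.4% and 63.0% in replicate 1, and 62.1% and 71.4% in replicate 2. The outer share was the lower one in both replicates, while the replicates differed from each other by a similar amount. Near protein-coding starts the IDR shares were nearly equal, 35.5% outer and 35.8% central. Those shares were 31.3% and 31.5% in replicate 1, and 36.1% and 41.7% in replicate 2. Near starts of ncRNA genes outside the small RNA classes the IDR shares were 21.2% outer and 30.4% central. Central windows also held more of such ncRNA genes, 3171 against 1476. The median distance to the nearest 5' end was 290 bp outer and 208 bp central, and 18.3% of outer summits against 11.6% of central ones lay beyond 2 kb. How much of all outer and central sequence lies this near a 5' end was not measured. The part of gene density in these differences was thus not tested.

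The outer peaks away from gene starts were mostly intergenic or intronic. Intergenic summits made up 21.4% outer and 15.8% central, and intronic ones 13.8% and 12.2%. Intergenic shares were 20.9% and 13.4% in replicate 1, and 17.7% and 13.2% in replicate 2. Coding exons held 4.67% of outer summits (22 peaks) and 1.95% of central ones (13 peaks). That share was 9.27% and 5.28% in replicate 1, and 3.90% and 1.30% in replicate 2, so the outer value was the higher in each. The intergenic, intronic and coding parts of each zone's sequence were not counted, so these shares have no background beside them. The 300 bases around the summit had a median GC content of 47.0% outer and 45.7% central, and a median masked share of 19.3% and 14.0%.

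Outer IDR peaks were matched in replicate 1, whose list was denser in outer windows, more often than central ones. Of the 471 outer IDR peaks, 12 (2.55%) had no overlapping peak in replicate 1's list, against 73 of 665 central ones (11.0%). All outer ones had one in replicate 2's list. Of replicate 2's own strongest peaks, 8.23% of outer and 22.2% of central ones had no overlapping peak in replicate 1, while the converse shares were 4.55% and 5.12%. When only the 2137 strongest of each were set against each other, 50.7% of replicate 1's outer peaks and 60.8% of replicate 2's overlapped one of the other (57.1% and 54.1% for central peaks).

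The 471 outer IDR peaks had 84 (17.8%) with a tRNA, snoRNA, snRNA or microRNA gene start within 500 bp, and the central ones 104 (15.6%). The shares were 14.5% and 13.7% in replicate 1, and 18.6% and 17.7% in replicate 2. Peaks near these genes were taller in both zones. Their median signal was 221 against 160 for the rest in outer windows, and 275 against 168 in central ones. They made up 12 of the 25 strongest outer peaks and 18 of the 25 strongest central ones. The snoRNA gene W03C9.9, on the right of II, had the tallest outer peak, with a signal of 1142 pooled, 619 in replicate 1 and 517 in replicate 2. snoRNAs guide chemical modification of ribosomal and spliceosomal RNA. The microRNA gene cel-mir-52, on the right of IV, followed with 1112 pooled, 509 and 607. mir-52 belongs to the broadly expressed mir-51 family. These were the second and the third strongest peaks of the whole IDR list, and the replicates ordered them differently.

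The snoRNA gene T06C12.16, on the right of V, had 776 pooled, 427 in replicate 1 and 348 in replicate 2. The snRNA gene R07E5.16, on the right of III, had 710, 371 and 338. The snoRNA genes Y43F8C.22 and Y38F2AR.14, on the right of V and the left of IV, had 647 and 635 pooled. For these last pair the replicates were close, at 326 and 331 for Y43F8C.22 and 322 and 315 for Y38F2AR.14. The tRNA gene F29C4.t1 had 538 pooled, with 329 in replicate 1 and 208 in replicate 2, a larger gap. The tRNA pairs Y22D7AL.t3 and Y22D7AL.t4 (left of III) and W09G10.t3 and W09G10.t2 (left of II, also near clec-126) had 456 and 377 pooled, the highest of their ends.

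Other tall outer peaks lay at starts of protein-coding genes or of other ncRNA genes. atx-2, the ataxin-2 homologue that regulates translation, had 607 pooled, 359 in replicate 1 and 250 in replicate 2. The start shared by ears-2, a glutamyl-tRNA synthetase, and uncp-18 had 574, with 271 and 301. tasp-1, a taspase-like protease, had 530, with 294 and 230. The ncRNA genes W01D2.7 and W01D2.9, near the start of W01D2.3, had 531, with 247 and 313. The ncRNA genes K10H10.11 and K10H10.14 had 502, with 249.6 and 253 in the replicates, about equal. A peak of 494 lay near hmg-1.1, an HMG-box chromatin protein, and 2 ncRNA genes, and cannot be assigned to one of them. The strongest peak on the left of V lay within 500 bp of the starts of F53E2.2, the nearer at 368 bp, and of unc-60, which encodes ADF/cofilin proteins that remodel actin. It was the lowest of the 8 end maxima, with 297 (180 in replicate 1, 126 in replicate 2).

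Gene classes were compared as the share of members with an IDR summit within 500 bp of the 5' end. Over all 36664 annotated genes of these chromosomes this share was 3.06%. Of these genes 15103 were piRNA genes, which were rarely marked and lower that share. Of 136 outer tRNA genes 47 had one (34.6%, exact 95% interval 26.6 to 43.2), as did 46 of 134 central ones (34.3%). For snoRNA genes the counts were 20 of 90 (22.2%) and 36 of 149 (24.2%). tRNA and snoRNA genes were thus marked at about the same share in both zones, with 33.1% and 35.3% of outer tRNA genes in replicates 1 and 2. For microRNA genes the share was 22.4% outer (19 of 85) and 11.6% central (8 of 69), with intervals that overlapped (14.0 to 32.7 and 5.14 to 21.6), and several of the outer ones are neighbours under the same peaks. In the replicates the outer microRNA share was 22.4% and 16.5% and the central one 8.70% and 13.0%. For snRNA genes it was 8.33% outer (4 of 48) and 22.6% central (14 of 62), again with overlapping intervals, and in the replicates 10.4% and 6.25% outer, 17.7% and 19.4% central.

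piRNA genes were rarely marked in either zone, with a lower share in outer windows. Of 11732 outer piRNA genes 20 had a summit nearby (0.170%), against 23 of 3371 central ones (0.682%). Only 5 outer and 14 central IDR summits lay near a piRNA gene start, so some of these genes are neighbours under the same peak. The outer share was 0.136% in replicate 1 and 0.614% in replicate 2, a gap nearly as large as that between the zones, and the central share 0.534% and 0.949%. Among replicate 2's strongest outer peaks with no overlapping peak in replicate 1, the highest were all on the right of IV, at 21ur-10291 and 21ur-5629 (144), at Y37A1B.332 and its neighbours (122) and at an ncRNA gene with 21ur-15504 and 21ur-6987 nearby (120). Those of replicate 1 without a counterpart were at T28D6.4 (86.2), npp-3, a nuclear pore protein gene (83.8), and lips-7 (82.7). None of the 15 outer rRNA genes had a summit nearby, which allows a share of up to 20%.

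Among protein-coding genes, 199 of 6426 outer ones had an IDR summit near the start (3.10%, 2.69 to 3.55) and 294 of 7938 central ones (3.70%, 3.30 to 4.14), beside 3.43% over both. The outer share was 3.07% in replicate 1 and 3.21% in replicate 2, and the central share 3.01% and 4.65%. In replicate 1 the zones therefore differed by less than the replicates did in central windows. In 7 families known for their expansion in worms, 5 of 1417 outer members were marked (0.353%) and 7 of 747 central ones (0.937%). Their outer share was 0.353% and 0.282% in the replicates and their central share 0.535% and 1.07%. Outside these families the shares were 3.87% outer and 3.99% central, with 3.83% and 3.27% in replicate 1 and 4.03% and 5.02% in replicate 2. The families made up a larger part of the outer genes, since 65.5% of their members on these chromosomes were outer, against 41.1% of the other protein-coding genes.

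Chemoreceptors, the seven-transmembrane proteins of chemosensory neurons, had 3 of 770 outer genes marked (0.39%), against 2 of 472 central ones (0.424%). The outer peaks were near srh-269 (215, shared with the tRNA gene T03E6.t1 at 32 bp), srw-85 (148) and srh-34 (145). Of the F-box genes, whose products select targets for ubiquitination, 87.2% were outer. Of these outer ones 1 of 252 was marked (0.397%), at a start shared by fbxb-85 and hex-3 (294), against 2 of 37 central ones (5.41%). Of 134 outer C-type lectin genes 1 was marked (0.746%), clec-126, beside the W09G10 tRNA genes, against 1 of 67 central ones (1.49%). No outer member was marked among 75 MATH and BTB genes, 131 nuclear hormone receptor genes, 35 cytochrome P450 genes or 20 UDP-glucuronosyltransferase genes, which allows shares of up to 4%, 2.29%, 8.57% and 15%. Of the central members, 2 of 92 nuclear hormone receptor genes were marked. None was among 10 MATH and BTB, 31 cytochrome P450 and 38 UDP-glucuronosyltransferase genes. Of the 5 outer peaks at these families, 3 lay where the start of a gene outside them was also close.

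Ribosomal protein genes, among the most widely expressed, were few in outer windows, and 7 were marked there. These were 7 of 14 outer genes (50%, 23.0 to 77.0), against 14 of 39 central ones (35.9%, 21.2 to 52.8). The outer and central shares were 42.9% and 35.9% in replicate 1 but 35.7% and 43.6% in replicate 2, so the replicates did not share a direction. The tallest were at rpl-15 (380 pooled, 209 and 180 in the replicates), rps-28 (365, 190 and 180) and rpl-12 (232, 118 and 105). The rpl-15 summit also lies near the start of K11H12.8. That of rpl-12 also lies near the start of lin-54, which encodes a subunit of the DREAM repressor complex. Of 19 outer histone genes 1 was marked, his-72, which encodes histone H3.3 (184), against 9 of 47 central ones (19.1%). The his-72 summit also lies near the start of the snoRNA gene Y49E10.36. In the replicates the outer histone share was 15.8% and 5.26% and the central one 12.8% and 17.0%, again in opposite directions. Of 36 outer collagen genes 3 were marked (8.33%), led by col-85 (366), whose peak centres on the tRNA gene T21B4.t1. Of 72 central collagen genes 1 was marked (1.39%). Of 5 outer translation factor genes 1 was marked, eif-3.B (182), and of 20 central ones 4.

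**Figure D5:**
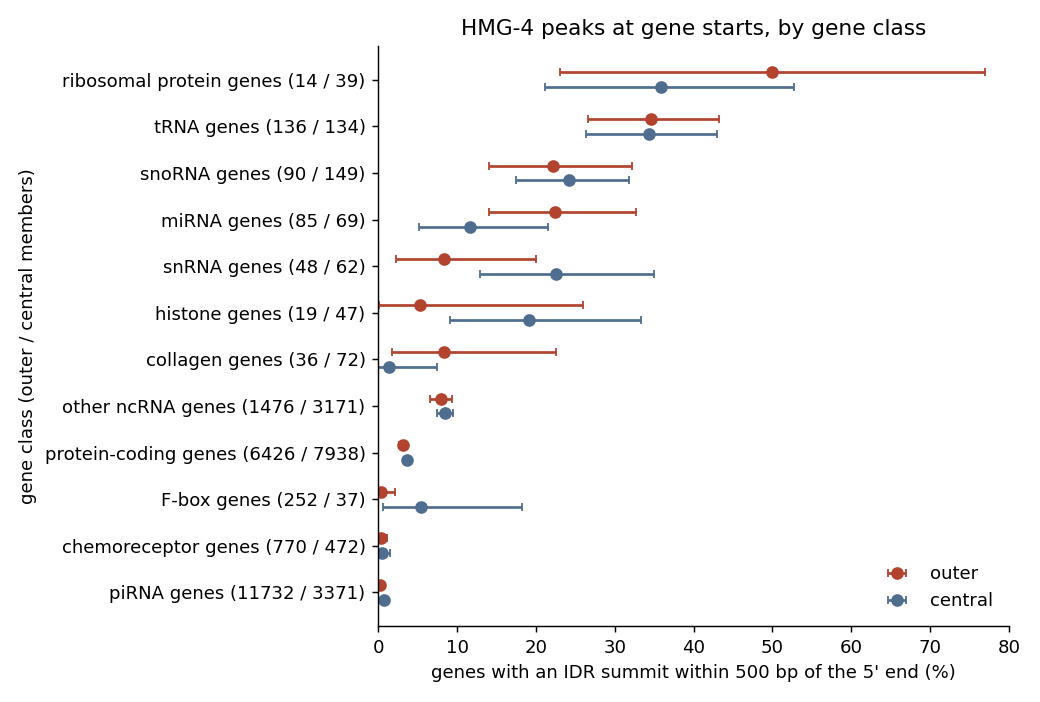
Share of genes with an IDR summit within 500 bp of the 5' end (horizontal axis, percent) by gene class, for outer and central windows; points are shares and bars exact 95% binomial intervals, which cover counting error only, and the numbers beside each class count its outer and central members. tRNA genes stand at 34.6% and 34.3%, while the share of piRNA genes stays under 1% in both zones.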

How the data were processed

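Chromatin immunoprecipitation with an antibody against green fluorescent protein was sequenced from early embryos, as 1 group of 2 biological replicates per the labels. The authors deposited 4 peak lists on ce11: 1 per replicate, 1 pooled and 1 thresholded by IDR. Each was derived from alignments against a control, per the file headers. The deposited signal value and −log10 q-value of each peak are the authors' own, and only the signal value served to order the peaks of a list. The sources used here do not name the aligner, caller, versions, IDR threshold or depth, so the precision that depth gives is unknown. Each replicate and pooled list stops at 30000 peaks.

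Summits were assigned to 100 kb windows and counted per Mb and per protein-coding gene (Ensembl release 115, by 5' end, 46890 nuclear genes). Of 2778 RNA genes without a name there, 2773 were named through RefSeq. Coordinates are 1-based. Unique sequence was counted as 31-base words found once in the 6 nuclear chromosomes, with copies on either strand counted. No test was made: with 1 group and 2 replicates, values are given beside each replicate's, and exact Clopper-Pearson intervals and the limit for a count of 0 (3 counts) cover counting error only. Neighbouring peaks that overlap the same replicate peak share its value. Counting and overlap steps were checked on simulated data. Python 3.11.15, pandas 2.3.3 and scipy 1.17.1 were used.

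The regions, gene lists and alternatives were chosen with earlier results of these data known. Named genes are those at the 15 strongest outer IDR peaks, the strongest peak of each end, the peaks of the 6 fullest windows, up to 3 per gene list, and up to 3 peaks per replicate that overlap none in the other. Gene families were selected by symbol. Alternatives varied window size, the outer fraction, short windows, summit or midpoint, merging, peak number, small RNA peaks, chromosomes, gene counting, overlap and each replicate left out.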

Additional observations from a re-analysis of the deposited data

How the results depend on the processing

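The outer-to-central ratio of IDR summits per Mb was 0.711 and stayed below 1 in all 18 alternatives, moving by more than the replicates' SD (0.131) with the 5000 strongest pooled peaks (0.993) and without replicate 2 (its range with 1 replicate left out was 0.672 to 0.857). The ratio per protein-coding gene reversed with the 5000 strongest pooled peaks (1.22), and its range with 1 replicate left out was 0.827 to 1.06, on both sides of 1. Its other alternatives ran from 0.737 to 0.979. The ratio over whole lists fell below 1 when cut to as many peaks as the IDR list (0.711 pooled, 0.857 in replicate 1, 0.672 in replicate 2) or, pooled and in replicate 2, to the 5000 strongest (0.993 and 0.836), while replicate 1 stood at 1.19. The share of outer windows without an IDR summit (41.1%) follows window size and peak number: 61.2% with 50 kb windows, 20.6% with 200 kb windows, 61.5% with the stronger 50% of the list and 13.9% with the 5000 strongest pooled peaks. It was 38.8% with the outer 30% of each end, 46.5% without summits near small RNA genes, 45.0% without chromosome III, 33.9% without chromosome V, and 37.0% to 40.2% with 1 replicate left out. The outer share of IDR summits (41.5%) was 32.2% and 53.0% with the outer 20% and outer 30%, which change the length counted, 49.7% with the 5000 strongest pooled peaks, and 40.1% to 46.1% with 1 replicate left out. The mean overlap of the replicates' strongest peaks (55.8% outer, 55.6% central) became 45.6% and 45.4% at 50% reciprocal overlap and 44.7% and 51.5% for the 5000 strongest, and the central value 59.1% for the 1000 strongest. No paired analysis was possible because there is only 1 group, so no numbers are shared between groups; outer and central values of the same replicate are compared as ratios. The lists hold no read depth, end at a fixed number of peaks, and come from 2 replicates with 1 control, so weak peaks depend on where each list stops. Counts per window are small, and neighbouring windows and peaks are not independent.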
